A study of Mus musculus with 8 samples.

Results

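The Wnt ligands, their Frizzled receptors and LRP co-receptors, the secreted proteins that block or boost them, and the target gene Axin2 were followed in the inguinal fat depot of mice (iWAT, a white fat that lies under the skin). Members were taken by name and gene type from the deposited table: protein-coding genes named as Wnts, as Frizzleds, as Sfrp1 to Sfrp4 or as Dkk1 to Dkk4, together with Lrp5, Lrp6, Wif1, Frzb, Rspo1, Rspo2, Rspo3 and Axin2. The rule used no measured value. It found 44 of the 54532 genes: 19 Wnt ligands, 10 Frizzled receptors, 2 co-receptors, 9 genes grouped as secreted inhibitors, 3 R-spondins and Axin2. Of these, 18 had a mean of at least 0.5 FPKM over the 8 libraries and were tested. The other 26 were below that level, and 3 of them (Wnt1, Wnt3a and Wnt7a) were at 0 in every library.

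All libraries came from male mice on a high-fat diet (HFD), 4 from wild-type mice (WT) and 4 from mice labelled KLF10AKO, whose knockout of the zinc-finger transcription factor KLF10 was aimed at adipocytes. Both groups shared the sex and the diet. The labels name no driver of the deletion, strain or age, and do not say whether each library is 1 animal. The p-values therefore set the group difference only against the spread between libraries, which may not be the spread between mice. The comparison set KLF10AKO against WT to find genes whose level differs in iWAT when KLF10 is deleted in adipocytes.

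Wnt proteins are secreted lipid-modified ligands that bind Frizzled receptors, and in the canonical branch they also bind LRP5 or LRP6. Receptor engagement stops the AXIN-APC-GSK3 destruction complex from degrading β-catenin, which then acts with TCF/LEF factors on targets such as Axin2, itself a negative regulator of the pathway. Canonical Wnt signalling is known to hold back adipogenesis, while Wnt5a is best known for signalling without β-catenin.

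The promoters of Fzd4 and Fzd1, the receptors with the highest levels, and of Wnt11 and Axin2, a ligand and a target that were higher in KLF10AKO, are shown because their genes moved in opposite directions. Each is the 250 bases before a start given by RefSeq on GRCm38.p6, printed 5′ to 3′ on the gene's own strand. Capitals mark the TCF/LEF core CTTTGA, the GC box GGGCGG and the CACCC box GGGTG on either strand, the last pair being motifs bound by Krüppel-like factors. Neighbouring GC-box matches in Fzd4 and in Wnt11 share a letter.
Fzd4, chr7:89404116-89404365, plus strand: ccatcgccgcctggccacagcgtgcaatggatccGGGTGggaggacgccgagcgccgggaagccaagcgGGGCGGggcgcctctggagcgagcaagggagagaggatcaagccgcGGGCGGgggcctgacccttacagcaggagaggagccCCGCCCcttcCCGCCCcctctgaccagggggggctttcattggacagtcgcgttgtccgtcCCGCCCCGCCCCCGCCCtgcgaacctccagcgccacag
Fzd1, chr5:4758217-4758466, minus strand: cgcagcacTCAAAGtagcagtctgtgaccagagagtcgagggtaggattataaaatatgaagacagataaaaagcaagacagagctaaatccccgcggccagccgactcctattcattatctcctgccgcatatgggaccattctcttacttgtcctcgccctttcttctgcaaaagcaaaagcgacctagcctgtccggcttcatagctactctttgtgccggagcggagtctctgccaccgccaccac
Wnt11, chr7:98834862-98835111, plus strand: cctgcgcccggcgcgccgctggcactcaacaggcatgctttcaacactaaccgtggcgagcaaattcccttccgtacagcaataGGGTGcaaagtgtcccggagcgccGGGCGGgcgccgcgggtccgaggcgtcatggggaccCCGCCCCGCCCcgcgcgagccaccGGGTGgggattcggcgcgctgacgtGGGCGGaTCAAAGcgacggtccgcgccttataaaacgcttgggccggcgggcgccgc
Axin2, chr11:108920099-108920348, plus strand: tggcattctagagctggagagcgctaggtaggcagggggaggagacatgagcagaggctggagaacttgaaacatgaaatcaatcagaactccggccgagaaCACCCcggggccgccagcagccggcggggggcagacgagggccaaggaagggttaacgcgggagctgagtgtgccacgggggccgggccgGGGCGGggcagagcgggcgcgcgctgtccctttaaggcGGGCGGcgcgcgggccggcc
The Fzd4 window held 7 GC boxes, 1 CACCC box and no TCF/LEF core, while the Fzd1 window held 1 TCF/LEF core, 242 bases before the start, and neither of the other motifs. The Wnt11 window held 1 TCF/LEF core 50 bases before the start, 4 GC boxes and 2 CACCC boxes, while the window of the other Wnt11 start in RefSeq (chr7:98838595-98838844, not printed) held 1 CACCC box and neither of the other motifs. Axin2 held 2 GC boxes, 58 and 20 bases before the start, and 1 CACCC box. RefSeq promoters were at hand for 28 of the 44 members. Of those, 5 held the TCF/LEF core, 21 the GC box and 19 the CACCC box, in at least 1 of their windows. Among all 32851 promoters of the same length, 13.8% held the TCF/LEF core, 32.7% the GC box and 52.0% the CACCC box. Among the members with a promoter, the GC box was held by all 3 that rose, by 2 of the 4 that fell and by 2 of the 3 that did not pass, and the TCF/LEF core by 1, 1 and 0 of them. These matches are a description of letters and not of binding.

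The groups differed widely in the markers of several cell types. The 14 adipocyte markers summed to between 15265 and 17412 FPKM in WT and between 5139 and 6493 in KLF10AKO, and all 14 fell. The 10 progenitor and fibroblast markers summed to 560 to 654 FPKM in WT and 195 to 274 in KLF10AKO, where 8 fell and 2 rose. The 7 B cell markers summed to 2.59 to 3.60 FPKM in WT and 1024 to 1517 in KLF10AKO, and the 8 T cell markers to 2.95 to 4.92 and 302 to 446. Skeletal muscle markers summed to 4394, 3319 and 7704 FPKM in KLF10AKO replicates 1 to 3, to 33.7 in replicate 4, and to 162 to 215 in WT. Nearly all of the WT sum was Acta1, at 160 to 213 FPKM, which stood at 20.9 in KLF10AKO replicate 4. Tnnt3, Tnni2 and Mylpf were higher in that replicate (3.11, 1.85 and 7.68 FPKM) than in any WT library. Ckm, Myh4, Myh1 and Tnnc2 were not. The 7 lymph node stroma markers summed to 78.8 to 92.9 FPKM in WT and 208 to 456 in KLF10AKO, with Ccl19 and Ccl21a at 0 in WT. Nearly all of the WT sum was Enpp2, at 77.2 to 91.9 FPKM, which fell to 44.7 to 48.2 in KLF10AKO. Of the 6 node stroma markers tested, 5 rose and only Enpp2 fell. The 6 smooth muscle and pericyte markers summed to 531 to 729 FPKM in WT and 150 to 188 in KLF10AKO. Most of each sum was Acta2, at 414 to 636 FPKM in WT and 98.4 to 124 in KLF10AKO. Of the 5 tested, 4 fell and Tagln did not pass (log2 -0.29, limma adjusted p = 0.0851). The 6 trophoblast markers summed to 21.7 to 58.2 FPKM in WT and were all at 0 in KLF10AKO. Klf10 itself fell by 0.88 (log2, limma adjusted p = 8.96e-06), but scaled to the adipocyte markers it was higher in KLF10AKO, by 0.73 (adjusted p = 4.48e-04). In bulk tissue, fewer cells of a type and less RNA per cell cannot be told apart, and the part of cell makeup in the results below was not tested.

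Most of the receptors stood lower in KLF10AKO iWAT, while a few ligands, Dkk3 and Axin2 stood higher. Of the 18 members tested, 14 passed the threshold (limma, Benjamini-Hochberg adjusted p under 0.05), 4 of them higher and 10 lower. Over all 16012 genes tested 74.3% passed, 39.4% higher and 34.9% lower, so the members' total is near the background, and the counts by direction are read here only as a description. The 4 that rose were the ligands Wnt11 and Wnt6, Axin2, and Dkk3, which was grouped with the inhibitors by its name. The 10 that fell were 5 Frizzleds, both co-receptors, Wnt5a, Wnt9a and Sfrp2. The median log2 change of the 18 was -0.83, against 0.05 over all genes tested. The groups did not overlap for any of the 14, and each had an exact two-sided permutation p of 0.0286, the smallest that 4 against 4 can give. Over all genes tested 69.2% did not overlap, 36.2% being higher and 33.0% lower. Log2 changes were fitted on log2(FPKM + 0.5) as KLF10AKO minus WT, which understates them for low genes, and folds are ratios of mean FPKM.

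**Figure D1:**
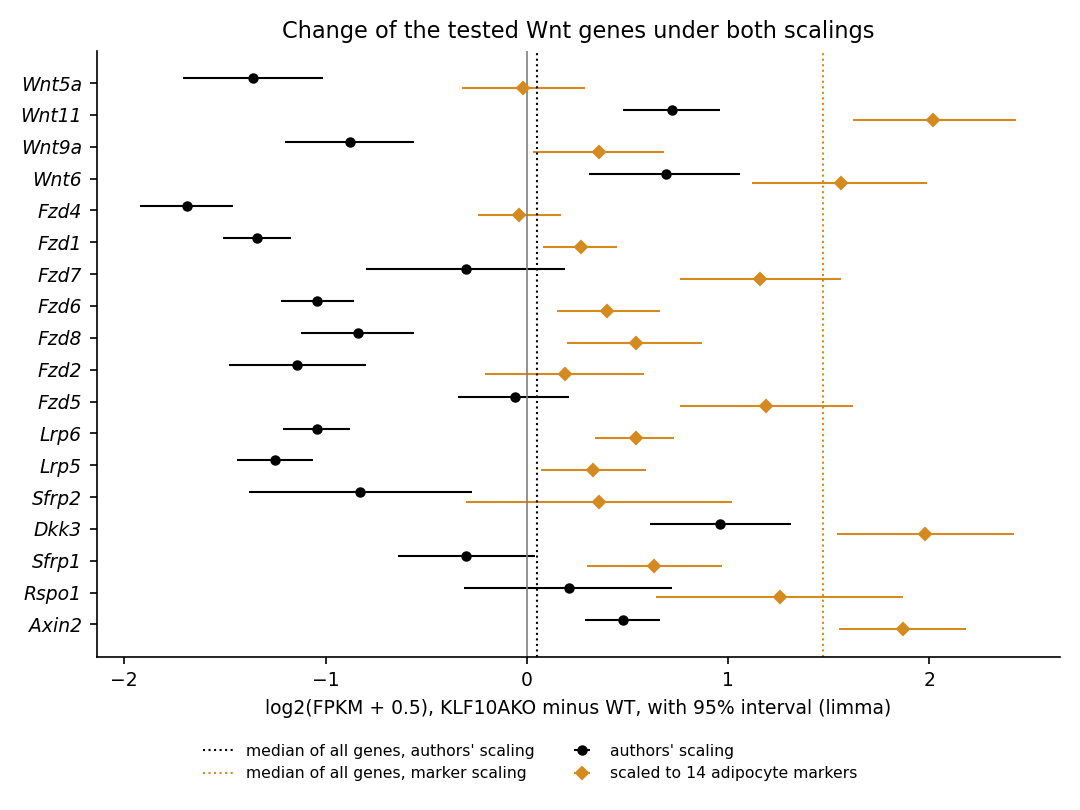
Log2 change (KLF10AKO minus WT) of log2(FPKM + 0.5) with its 95% interval for the 18 members tested, with the values as deposited and after scaling each library to 14 adipocyte markers. As deposited, 10 members lie below 0 and 4 above it past the threshold, and after scaling the intervals of Fzd4, Wnt5a, Fzd2 and Sfrp2 span 0.

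Because the adipocyte markers fell by a median of 1.79 on the log2 scale, each library was also scaled to their mean, which moved the all-gene median on the log2 scale by 1.42 to 1.47. On that scale 14 of the 18 members were higher and 0 lower past the threshold, where 88.8% of all genes passed, 87.7% higher and 1.12% lower. Scaled to the fibroblast markers, an alternative chosen after seeing the data, 4 members were higher and 9 lower, where 75.6% of all genes passed, 58.9% higher and 16.7% lower. The members' median was then -0.38 and that of all genes 0.55. That scale was the mean of all 10 fibroblast markers. Dpp4 and Icam1, which rose (log2 2.98 and 1.60), offset part of the fall of the other 8 in it. With KLF10AKO replicate 4, the library with few muscle reads, as the sole library of its group, 4 members were higher and 10 lower, where 62.1% of all genes passed, 32.4% higher and 29.7% lower. Most of the members that fell as deposited were higher relative to the adipocyte markers, and the direction words below hold for the values as deposited.

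The ligands came first by role. Wnt5a (chromosome 14, 28504750 to 28527448, plus strand), which signals mainly without β-catenin, was the ligand of highest level in WT. In replicates 1 to 4 of WT it read 3.97, 3.92, 4.15 and 3.81 FPKM, and in those of KLF10AKO, in the same order as all values below, 1.24, 1.31, 1.78 and 0.782. Every KLF10AKO library lay below every WT library, and among the KLF10AKO libraries replicate 3 was highest and replicate 4 lowest. The mean fell 3.10-fold, from 3.96 ± 0.140 to 1.28 ± 0.407 (SD, n = 4 each), and the log2 change was -1.36 (standard error 0.155, limma adjusted p = 4.60e-05). Scaled to adipocyte markers, which themselves fell, the change was -0.02 (95% interval -0.32 to 0.29, adjusted p = 0.908), and scaled to fibroblast markers it was -0.89.

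Wnt9a (chromosome 11, 59306928 to 59333552, plus strand), a ligand known from joint formation, fell as well. Its FPKM was 2.15, 2.02, 2.42 and 2.27 in WT and 0.919, 0.744, 1.44 and 0.885 in KLF10AKO. KLF10AKO replicate 3 was again the highest of its group and still below all of WT. The log2 change was -0.88 (standard error 0.140, limma adjusted p = 4.02e-04), with means of 2.22 ± 0.170 and 0.997 ± 0.305 FPKM (SD, n = 4 each).

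Wnt11 (chromosome 7, 98835112 to 98855195, plus strand), a ligand of cell movement and planar polarity, rose. It had 1.55, 1.54, 1.37 and 1.40 FPKM in WT against 2.65, 3.04, 2.20 and 3.11 in KLF10AKO. Each KLF10AKO library exceeded each WT library, with replicate 4, the library without high muscle genes, at the top and replicate 3 at the bottom. The mean rose 1.88-fold, from 1.47 ± 0.0951 to 2.75 ± 0.420 FPKM (SD, n = 4 each), and the log2 change was 0.72 (standard error 0.106, 95% interval 0.48 to 0.96, limma adjusted p = 2.47e-04).

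Wnt6 (chromosome 1, 74771892 to 74785322, plus strand), a ligand of epithelia, rose from a low level. Its FPKM was 0.397, 0.384, 0.395 and 0.249 in WT and 1.23, 0.601, 0.830 and 0.905 in KLF10AKO, a log2 change of 0.69 (standard error 0.163, limma adjusted p = 0.00429). The groups did not overlap, but the call was lost under quantile normalization, where the change was 0.21 (adjusted p = 0.321). Its mean of 0.623 FPKM lay just inside the filter, which it met only through KLF10AKO (0.891 ± 0.259 FPKM, against 0.356 ± 0.0720 in WT, SD, n = 4 each), so its place among the members that rose supports nothing about them.

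The neighbour of Wnt6 on chromosome 1 is Wnt10a, a canonical ligand that restrains fat cell formation, which starts 6193 bases downstream on the same strand. Wnt10a was under the filter, with 0.0543, 0.0487, 0 and 0.0276 FPKM in WT and 0.641, 1.05, 0.603 and 0.895 in KLF10AKO. All 4 KLF10AKO libraries stood above WT, with 145 recovered reads in all against 5. Fitted without a filter its log2 change was 1.27 (limma adjusted p = 6.49e-05). The 7 epithelial markers summed to 0.533 to 1.34 FPKM in WT and 1.33 to 2.36 in KLF10AKO, with Krt5 and Krt15 at 0 in all 8 libraries. The 1 of them above the filter, Epcam, rose, with at most 0.0884 FPKM in WT and 1.40, 1.50, 1.0 and 1.86 in KLF10AKO (log2 1.81, adjusted p = 1.04e-05). Epcam met the filter only through KLF10AKO and made up most of the sum there. Cdh1 was higher in KLF10AKO as well, at 0.253 to 0.384 FPKM against at most 0.117, while Krt8 was lower, at up to 0.0538 FPKM against 0.137 to 0.522. Krt18 was mostly lower too, with 0.280, 0.544, 0.696 and 0.711 FPKM in WT and 0.294, 0.0367, 0.0767 and 0.118 in KLF10AKO. The part of epithelium in the values of Wnt6 and Wnt10a was not tested.

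The make-up of the Wnt ligands differed between the groups as well as their sum. The 19 ligands summed to 10.3 ± 0.327 FPKM (SD, n = 4) in WT against 8.62 ± 0.602 (SD, n = 4) in KLF10AKO. Wnt5a held 38.6% ± 0.361 of that sum in WT against 14.6% ± 3.78 in KLF10AKO, and Wnt9a held 21.6% ± 1.49 and 11.5% ± 3.0 (SD, n = 4 each). Wnt11 went the other way, from 14.3% ± 1.05 to 32.2% ± 6.83, with 30.3%, 34.8%, 23.9% and 39.9% in KLF10AKO replicates 1 to 4. Wnt5a thus led the ligands in WT and Wnt11 in KLF10AKO. The FPKM ratio of Wnt11 to Wnt5a, which no scaling of a whole library can move, was 0.370 ± 0.0294 in WT against 2.42 ± 1.14 in KLF10AKO (SD, n = 4 each).

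**Figure D2:**
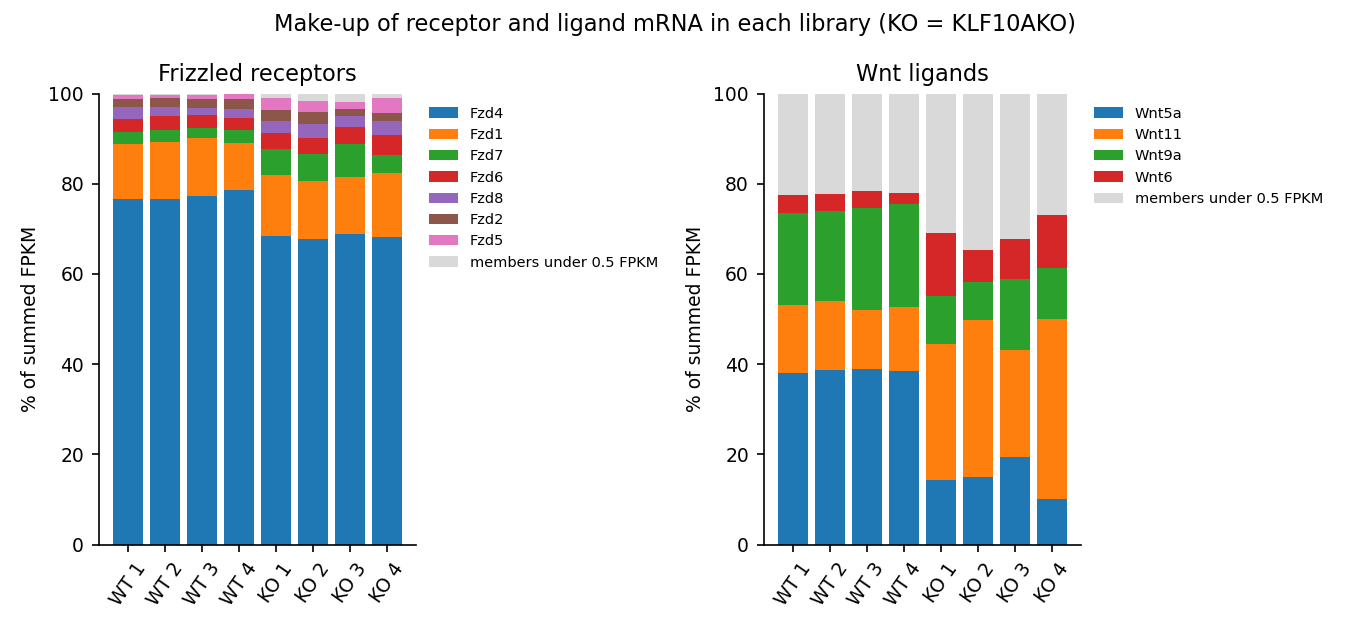
Percent of the summed Frizzled FPKM and of the summed Wnt FPKM held by each tested member, with those under the filter in grey, 1 stacked bar per library, WT replicates 1 to 4 beside KLF10AKO replicates 1 to 4. Fzd4 holds most of the Frizzled sum in all 8 libraries, and the Wnt5a share is smaller and the Wnt11 share larger in the KLF10AKO libraries.

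Among the Frizzled receptors 7 of 10 were tested, 5 fell, 0 rose and Fzd7 and Fzd5 did not pass, beside the 74.3% of all genes that passed and the 34.9% that were lower. Fzd4 (chromosome 7, 89404355 to 89413134, plus strand), a receptor for Wnts and for norrin in blood vessels, had the highest level of any member in every library. Its FPKM was 131, 129, 125 and 146 in WT and 41.8, 39.0, 48.3 and 34.8 in KLF10AKO. The lowest WT library stood far above the highest KLF10AKO library, and replicates 3 and 4 again marked the top and bottom of KLF10AKO. The mean fell 3.24-fold, from 133 ± 9.18 to 41.0 ± 5.68 FPKM (SD, n = 4 each), with a log2 change of -1.69 (standard error 0.101, limma adjusted p = 8.46e-07). Scaled to adipocyte markers the change was -0.04 (95% interval -0.24 to 0.17, adjusted p = 0.716), and scaled to fibroblast markers -1.11. Blood endothelial markers, 6 in number, summed to 520 to 589 FPKM in WT and 258 to 298 in KLF10AKO. Cldn5 made up most of both sums. Of the 6, 5 fell and Pecam1 did not pass (log2 -0.10, limma adjusted p = 0.142). The part of blood endothelium in the Fzd4 change was not tested.

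Fzd1 (chromosome 5, 4753839 to 4758035, minus strand), a receptor of canonical Wnts, was the next highest Frizzled. It had 21.1, 21.4, 21.0 and 19.6 FPKM in WT against 8.33, 7.32, 8.86 and 7.24 in KLF10AKO. The groups were tight and far apart: the means of 20.8 ± 0.798 and 7.94 ± 0.790 (SD, n = 4 each) differed 2.62-fold. The log2 change was -1.34 (standard error 0.0740, limma adjusted p = 5.36e-07), and 0.27 when scaled to adipocyte markers (adjusted p = 0.0114).

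**Figure D3:**
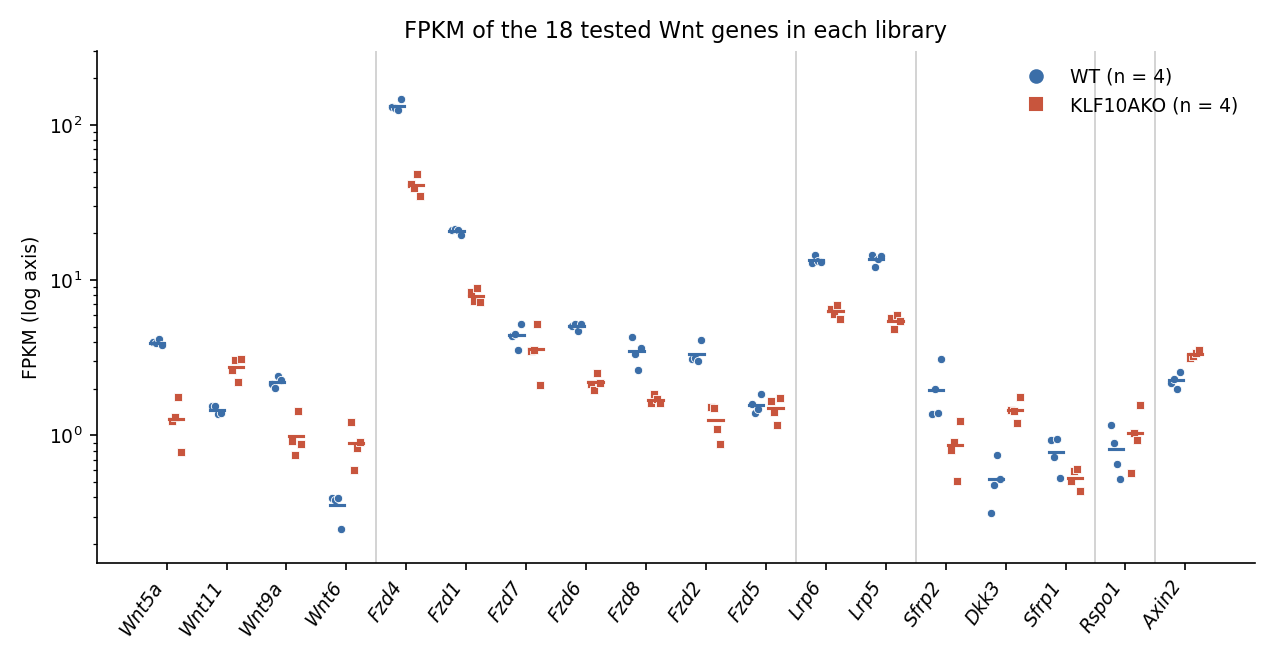
FPKM of the tested members in each library on a log axis, 1 point per library, WT and KLF10AKO side by side with a bar at each group mean. Fzd4 lies above all other members in both groups, and the groups overlap for Fzd7, Fzd5, Rspo1 and Sfrp1.

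Fzd6, Fzd2 and Fzd8 fell from lower levels. Fzd6 (chromosome 15, 39006034 to 39038188, plus strand), a receptor of planar polarity, had 5.06, 5.25, 4.72 and 5.24 FPKM in WT against 2.16, 1.96, 2.54 and 2.18 in KLF10AKO, a log2 change of -1.04 (limma adjusted p = 3.58e-06). Fzd2 (chromosome 11, 102604396 to 102608058, plus strand), a receptor for Wnt5a among others, had 3.09, 3.14, 3.02 and 4.11 FPKM in WT against 1.53, 1.51, 1.10 and 0.882 in KLF10AKO, a log2 change of -1.14 (adjusted p = 1.12e-04). For both genes all KLF10AKO libraries were below all WT libraries. Fzd8 had 4.28, 3.34, 2.65 and 3.64 FPKM in WT against 1.61, 1.84, 1.73 and 1.61 in KLF10AKO, a log2 change of -0.84 (adjusted p = 2.35e-04). Its WT libraries were the more scattered group, with a standard deviation of 0.678 FPKM against 0.113.

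Fzd7 and Fzd5 were the receptors that did not pass. Fzd7 (chromosome 1, 59482424 to 59486955, plus strand), a receptor of progenitor cells in several tissues, had 4.37, 4.52, 3.54 and 5.24 FPKM in WT against 3.51, 3.56, 5.26 and 2.11 in KLF10AKO. The KLF10AKO libraries enclosed the range of WT, with replicate 3 the highest and replicate 4 the lowest of all 8. The log2 change was -0.30 (95% interval -0.80 to 0.19, limma adjusted p = 0.234). Without KLF10AKO replicate 3 it was -0.48 (adjusted p = 0.0410), and with replicate 4 as the sole KLF10AKO library -0.90 (adjusted p = 0.0206), so the missing call rests on single libraries. It also passed under quantile normalization (-0.55, adjusted p = 0.0429). Skeletal muscle markers were highest in replicate 3 and lowest in replicate 4, as Fzd7 was, and their part in its values was not tested. Fzd5 (chromosome 1, 64730558 to 64737751, minus strand), a receptor known from the eye and the gut, had 1.60, 1.39, 1.49 and 1.84 FPKM in WT against 1.67, 1.41, 1.16 and 1.75 in KLF10AKO, and the groups overlapped (log2 change -0.06, 95% interval -0.34 to 0.21, adjusted p = 0.654). Under quantile normalization Fzd5 passed as lower (-0.39, adjusted p = 0.0155).

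Summed over the 10 Frizzleds, FPKM was 172 ± 10.2 in WT against 60.0 ± 7.98 in KLF10AKO (SD, n = 4 each). Fzd4 held 76.6%, 76.6%, 77.2% and 78.5% of the sum in WT and 68.3%, 67.8%, 68.8% and 68.1% in KLF10AKO. The share was lower in each KLF10AKO library than in each WT library, yet Fzd4 remained the leading Frizzled in all 8. Fzd7 held 2.56% ± 0.272 in WT against 5.89% ± 1.38 in KLF10AKO, and Fzd5 0.918% ± 0.0680 and 2.57% ± 0.734 (SD, n = 4 each).

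Both co-receptors of the canonical branch fell. Lrp5 (chromosome 19, 3584828 to 3686564, minus strand), whose human counterpart is tied to bone mass and fat distribution, had 14.6, 12.1, 13.7 and 14.4 FPKM in WT against 5.68, 4.82, 5.94 and 5.44 in KLF10AKO. Lrp6 (chromosome 6, 134446476 to 134566965, minus strand), the more widely used co-receptor, had 12.9, 14.6, 13.3 and 13.1 FPKM in WT against 6.48, 6.10, 6.93 and 5.65 in KLF10AKO. No KLF10AKO library reached the lowest WT library for either gene. The log2 changes were -1.25 for Lrp5 (standard error 0.0823, limma adjusted p = 1.44e-06) and -1.04 for Lrp6 (standard error 0.0725, adjusted p = 1.96e-06). Scaled to adipocyte markers both turned, to 0.33 (adjusted p = 0.0225) and 0.54 (adjusted p = 1.88e-04).

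The genes grouped as secreted inhibitors moved in different directions. Sfrp2 (chromosome 3, 83766321 to 83774316, plus strand), a Frizzled-like decoy made by fibroblasts, had 1.37, 1.98, 1.39 and 3.13 FPKM in WT against 0.808, 0.905, 0.512 and 1.24 in KLF10AKO. The highest KLF10AKO library lay just below the lowest WT library, and WT was widely spread (1.97 ± 0.825 FPKM, SD, n = 4). The log2 change of -0.83 (standard error 0.242, limma adjusted p = 0.0125) lost its call with KLF10AKO replicate 4 alone (-0.45, adjusted p = 0.403), scaled to fibroblast markers (-0.40, adjusted p = 0.217) and scaled to adipocyte markers (0.36, adjusted p = 0.266).

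Dkk3 (chromosome 7, 112116017 to 112159057, minus strand), a divergent member of the Dickkopf family, rose. Its FPKM was 0.319, 0.483, 0.754 and 0.527 in WT and 1.46, 1.43, 1.21 and 1.77 in KLF10AKO. Every KLF10AKO library exceeded every WT library, and the mean rose 2.82-fold, from 0.521 ± 0.179 to 1.47 ± 0.229 FPKM (SD, n = 4 each). The log2 change was 0.96 (standard error 0.154, limma adjusted p = 4.21e-04), the largest rise among the members tested.

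Sfrp1 (chromosome 8, 23411502 to 23449632, plus strand), another Frizzled-like decoy, had 0.934, 0.729, 0.945 and 0.530 FPKM in WT against 0.507, 0.591, 0.605 and 0.441 in KLF10AKO. WT replicate 4 fell among the KLF10AKO libraries, and the change did not pass (log2 -0.30, 95% interval -0.64 to 0.04, limma adjusted p = 0.0941). Without that library it passed (-0.40, adjusted p = 0.0268), and so it did under quantile normalization (-0.83, adjusted p = 7.78e-04). With eBayes without trend it passed narrowly (-0.30, adjusted p = 0.0494). Rspo1 (chromosome 4, 124986430 to 125009099, plus strand), an R-spondin, which strengthens Wnt signals by protecting Frizzleds from removal, was spread over 0.527 to 1.17 FPKM in WT and 0.571 to 1.58 in KLF10AKO. Its change of 0.21 (95% interval -0.31 to 0.72, adjusted p = 0.431) was smaller than the spread between libraries.

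Axin2 (chromosome 11, 108920349 to 108950783, plus strand), the target and feedback inhibitor of the canonical pathway, rose. It had 2.18, 2.32, 2.0 and 2.57 FPKM in WT against 3.16, 3.24, 3.39 and 3.56 in KLF10AKO. All 4 KLF10AKO libraries lay close together and above WT. The mean rose 1.47-fold, from 2.27 ± 0.243 to 3.34 ± 0.175 FPKM (SD, n = 4 each), with a log2 change of 0.48 (standard error 0.0817, 95% interval 0.29 to 0.66, limma adjusted p = 6.29e-04). Under quantile normalization it was 0.19 and no longer passed (adjusted p = 0.0526). Axin2 thus rose while the receptors Fzd4 and Fzd1 and both co-receptors fell in the same libraries.

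The members that passed differed in how they ordered the KLF10AKO libraries. Of the 10 that fell, 7 were highest in KLF10AKO replicate 3 (Fzd1, Fzd4, Fzd6, Lrp5, Lrp6, Wnt5a and Wnt9a) and 5 were lowest in replicate 4 (Fzd1, Fzd2, Fzd4, Lrp6 and Wnt5a), 4 of them sharing both ends. Fzd2 was highest in replicate 1 and Fzd8 in replicate 2, and Sfrp2 ran the opposite way, highest in replicate 4 and lowest in replicate 3. Of the 4 that rose, Axin2, Dkk3 and Wnt11 were highest in replicate 4, and Wnt6 in replicate 1. The adipocyte markers were highest in replicate 3 and lowest in replicate 4, with 6493 FPKM in replicate 3 and 5139 in replicate 4, and the B cell markers the reverse, with 1024 and 1517. The part of cell makeup in this order was not tested.

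Under the filter, 23 members were above 0 in at least 1 library, at up to 1.33 FPKM. Fitted without a filter, 5 of them rose and 4 fell, where 43.1% of all genes above 0 passed, 23.5% higher and 19.6% lower, and 14.8% of those under the filter, 9.30% higher and 5.46% lower. The genes under the filter had a median of 7 reads over the 8 libraries and the 23 members a median of 71.0, so their shares are not read against each other. Groups did not overlap for 7 of the 23, 3 higher and 4 lower, while 13.7% of all genes under the filter did not overlap, 8.35% higher and 5.33% lower. Wif1 and Wnt8b, with means of 0.489 and 0.479 FPKM, lay just outside the filter, and Wnt6 and Sfrp1, with 0.623 and 0.660, just inside it.

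**Figure D4:**
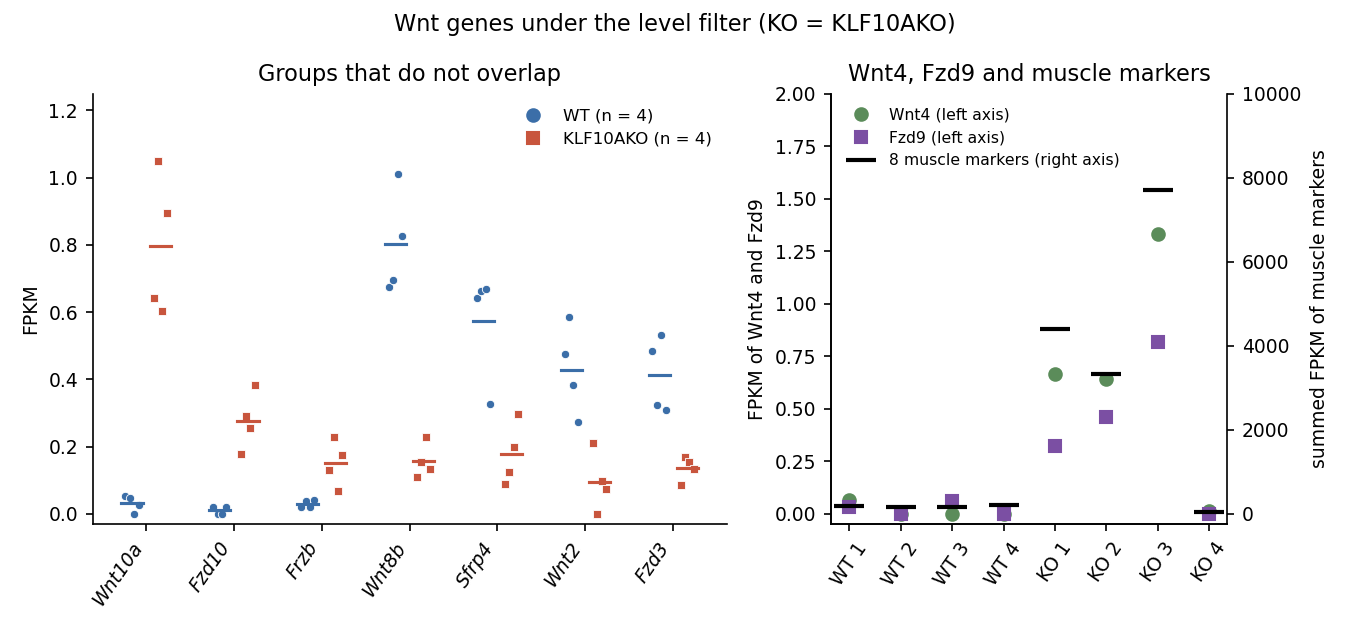
Left, FPKM of the members under the filter whose groups do not overlap, 1 point per library and a bar at each group mean. Right, FPKM of Wnt4 and Fzd9 (left axis) and the summed FPKM of 8 skeletal muscle markers (right axis) in each library, all near 0 in KLF10AKO replicate 4 and high in replicates 1 to 3.

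Fzd10, a receptor of limited range in adults, had 0.0206, 0, 0 and 0.0210 FPKM in WT and 0.179, 0.292, 0.255 and 0.384 in KLF10AKO, or 2 reads against 66. Frzb, a Frizzled-like decoy of cartilage, had 0.0207, 0.0372, 0.0206 and 0.0421 FPKM in WT and 0.130, 0.228, 0.0681 and 0.175 in KLF10AKO, or 6 reads against 36. Both were higher in all 4 KLF10AKO libraries, and both rose in the fit without a filter (log2 0.60 for Fzd10, limma adjusted p = 4.23e-04, and 0.29 for Frzb, adjusted p = 0.0149).

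Wnt8b, a ligand of the developing brain, had 0.674, 0.695, 1.01 and 0.827 FPKM in WT and 0.109, 0.156, 0.229 and 0.134 in KLF10AKO, or 165 reads against 39. Sfrp4, a decoy that fat tissue secretes, had 0.641, 0.662, 0.670 and 0.326 FPKM in WT and 0.0883, 0.126, 0.198 and 0.298 in KLF10AKO, or 148 reads against 54. Wnt2, a canonical ligand, had 0.475, 0.587, 0.384 and 0.272 FPKM in WT and 0.210, 0, 0.0978 and 0.0754 in KLF10AKO. In each of the 3 the groups were apart, closely so for Sfrp4 and Wnt2. Their log2 changes without a filter were -0.98, -0.66 and -0.64 (limma adjusted p = 1.99e-04, 0.00794 and 0.00608). Fzd3, a receptor of axon guidance, fell as well, with 322 reads in WT and 128 in KLF10AKO (log2 -0.51, adjusted p = 0.00430).

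Wnt4 and Fzd9 divided the KLF10AKO libraries instead of the groups. Wnt4, a ligand of kidney and gonad development, had 0.666, 0.641 and 1.33 FPKM in KLF10AKO replicates 1 to 3, 0.0135 in replicate 4, and 0.0639, 0, 0 and 0 in WT. Fzd9, which has been studied in muscle and bone, had 0.322, 0.460 and 0.818 FPKM in replicates 1 to 3, 0 in replicate 4 and at most 0.0581 in WT. Both were high where the summed muscle markers were high (4394, 3319 and 7704 FPKM) and at or near 0 where these were at 33.7. Wnt4 passed without a filter (log2 1.04, limma adjusted p = 0.0364) and Fzd9 did not (0.70, adjusted p = 0.0589). The part of muscle tissue in these values was not tested.

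Rspo3, an R-spondin of blood vessels, rose from 12 to 55 reads (log2 0.39, limma adjusted p = 0.0268 without a filter), with its lowest KLF10AKO library, at 0.143 FPKM, below the highest of WT, at 0.173. Dkk2, an inhibitor that binds the LRP co-receptors, was even in KLF10AKO, at 0.370 to 0.441 FPKM, and scattered in WT, at 0.0184 to 0.414, and did not pass (log2 0.40, adjusted p = 0.0818). Wif1, a secreted protein that captures Wnts, had 0.248 to 0.552 FPKM in WT and 0.537 to 0.659 in KLF10AKO (log2 0.27, adjusted p = 0.186). For all 3 the groups overlapped.

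Wnt10b, the ligand best known for holding back adipogenesis, had 0.374, 0.301, 0.255 and 0.280 FPKM in WT and 0.357, 0.186, 0.195 and 0.200 in KLF10AKO. KLF10AKO replicate 1 lay inside the WT range and the other 3 below it, and the change did not pass (log2 -0.13, 95% interval -0.36 to 0.10, limma adjusted p = 0.359). Wnt5b, Wnt2b, Wnt9b and Wnt16 did not pass either, with log2 changes of 0.12, -0.10, 0.00 and -0.08 (adjusted p = 0.529, 0.550, 0.960 and 0.322) and overlapping groups.

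Reads were too few for a comparison of several others. Wnt3 had 0 reads in WT and 12 in KLF10AKO (3, 6, 0 and 3), and did not pass (limma adjusted p = 0.0728 without a filter). Wnt8a had 0 reads in WT and 6 in KLF10AKO (0, 5, 0 and 1), and did not pass either (adjusted p = 0.311). With 3 reads in all of WT put in place of 0, they were 3.32-fold and 1.66-fold higher in KLF10AKO. Dkk4, Dkk1, Wnt7b and Rspo2 had at most 3 reads in a group. The folds for Wnt3 and Wnt8a take the KLF10AKO reads as exact and so are not lower limits, and the groups overlapped for both.

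Of 69 other genes of the pathway, chosen by their textbook roles, 56 were tested and 45 passed, 18 higher and 27 lower, with a median log2 change of -0.27. Over all genes tested 74.3% passed, 39.4% higher and 34.9% lower, so the total that passed is near the background. The smaller lists that follow hold too few genes to be read against it, and all these counts are given as a description. Both tested genes of ligand export fell: Porcn, the enzyme that attaches the lipid to Wnts, changed by -1.23 (limma adjusted p = 2.31e-05), and Wls, the carrier that takes them to the cell surface, by -0.73 (adjusted p = 1.77e-05), a call lost when scaled to fibroblast markers (-0.18, adjusted p = 0.0676). Of 11 other secreted or membrane regulators tested, 3 rose and 7 fell. Sfrp5, an inhibitor secreted by adipocytes, was the most abundant Sfrp, at 254, 268, 252 and 272 FPKM in WT and 95.7, 95.6, 114 and 71.8 in KLF10AKO (log2 -1.49, adjusted p = 6.94e-06). Its order of libraries within KLF10AKO, replicate 3 highest and replicate 4 lowest, was that of Fzd4. Apcdd1, a membrane inhibitor, fell by 1.88 on the log2 scale, and Lgr4, an R-spondin receptor, by 1.56 (adjusted p = 4.77e-07 and 2.84e-06). Rnf43, a ligase that removes Frizzleds from the surface, rose by 1.50, and Sostdc1, a secreted inhibitor, by 1.53 (adjusted p = 2.39e-05 and 1.06e-05). Both met the filter only through KLF10AKO, with means of 0.0472 and 0.313 FPKM in WT against 1.06 and 1.85. Their place among the 3 that rose thus supports nothing about the list. Cthrc1, among the 7 that fell, met the filter only through WT (means of 1.62 FPKM in WT and 0.316 in KLF10AKO). Its place there supports nothing about the list either.

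**Figure D5:**
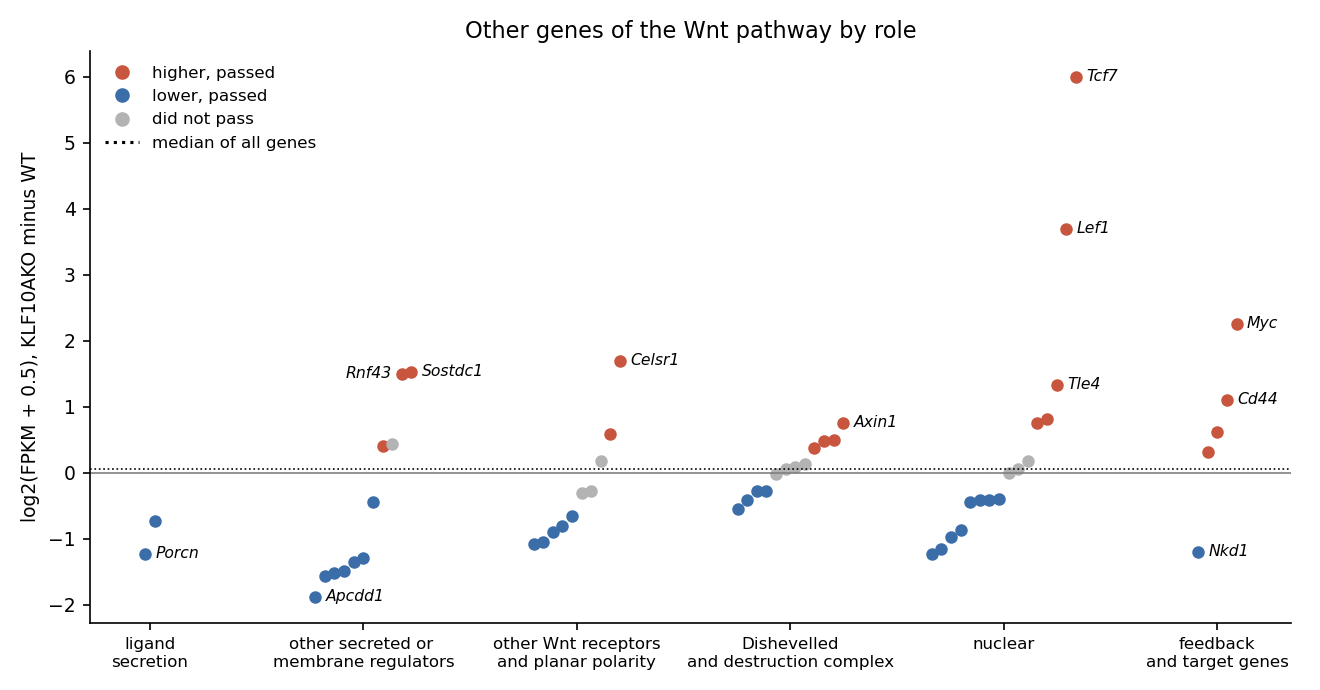
Log2 change (KLF10AKO minus WT) of the tested pathway genes outside the members, grouped by role, with 1 point per gene and some of the genes labelled. Tcf7, Lef1 and Myc lie far above 0, while Apcdd1 and the unlabelled Tcf7l1, Tcf7l2 and Lgr4 lie below it.

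Among the planar polarity genes and other receptors 2 of 10 rose and 5 fell, with Celsr1 and Vangl2 up by 1.69 and 0.59 and Celsr2 and Prickle1 down by 1.05 and 0.65 (log2, limma adjusted p = 1.02e-05, 0.00313, 2.23e-06 and 3.18e-05). Celsr1 met the filter only through KLF10AKO, with means of 0.0544 FPKM in WT and 1.31 in KLF10AKO. Its place among the 2 that rose thus supports nothing about the list. Vangl2 lost its call under quantile normalization (0.22, adjusted p = 0.153), and Prickle1 scaled to fibroblast markers (-0.16, adjusted p = 0.220). Of 12 Dishevelled and destruction complex genes, 4 rose and 4 fell. Axin1, the scaffold of the complex, rose by 0.75, and Dvl2, an adaptor below Frizzled, by 0.50, while the kinases Gsk3b and Csnk1e changed by -0.55 and -0.41 (adjusted p = 4.47e-05, 6.07e-04, 4.47e-05 and 2.56e-04). The change of Csnk1e did not pass with TPM (-0.23, adjusted p = 0.0985). Dvl2 shares 18.3% of its exon bases with Acadvl on the opposite strand, which stood at a mean of 34.8 FPKM, and without a stated strand setting their reads cannot be told apart.

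Of 16 nuclear genes, 5 rose and 8 fell, and the TCF/LEF factors, the partners of β-catenin, changed over. Tcf7, which is highly expressed in T cells, had 0.842, 0.573, 0.838 and 0.648 FPKM in WT and 77.6, 79.9, 62.7 and 92.7 in KLF10AKO (log2 6.0, limma adjusted p = 3.20e-09). Lef1, also a lymphocyte gene, stood at 0.0360 ± 0.0201 and 6.52 ± 1.07 FPKM (SD, n = 4 each, log2 3.70, adjusted p = 2.74e-08). It met the filter only through KLF10AKO, so its place among the 5 that rose supports nothing about the list. Pygo1, among the 8 that fell, met the filter only through WT (means of 0.665 FPKM in WT and 0.378 in KLF10AKO). Its place there supports nothing about the list either. Tcf7l1 and Tcf7l2, the forms of many other tissues, fell by 0.98 and 1.15 (adjusted p = 1.23e-06 and 9.56e-06). Of the summed FPKM of the 4 genes, Tcf7 held 3.0% to 4.48% in WT libraries and 81.8% to 86.0% in KLF10AKO libraries. Tcf7 and the T cell markers had the same order in KLF10AKO, with replicate 4 highest and replicate 3 lowest, and the part of lymphocytes in the change was not tested. Ctnnbip1, which blocks β-catenin from TCF factors, fell by 1.23 (adjusted p = 3.23e-06). Ctnnb1, which encodes β-catenin, changed by -0.44 (adjusted p = 4.81e-05), and with TPM by -0.23, which did not pass (adjusted p = 0.0604).

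Of 5 tested feedback genes and targets other than Axin2, 4 rose and 1 fell, beside the 74.3% of all genes that passed and the 39.4% that were higher. Myc rose by 2.26 on the log2 scale and Cd44 by 1.10 (limma adjusted p = 1.95e-08 and 9.08e-07), both genes also expressed by lymphocytes, and Nkd1, a feedback inhibitor, fell by 1.20 (adjusted p = 5.84e-05). Scaled to adipocyte markers, 48 of the 56 pathway genes were higher and 1 lower, where 87.7% of all genes were higher and 1.12% lower.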

How the data were processed

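Poly(A)-selected RNA of 4 WT and 4 KLF10AKO libraries was sequenced from fragments of 370 to 420 bp, per the labels' protocols. Per the submitters' processing notes, the genome was mm10 and the tools were edgeR 3.22.5, featureCounts 1.5.0-p3 and HISAT2 2.0.5. Which annotation and strand setting they ran with is not stated there. The authors deposited FPKM beside gene lengths, and their library sizes had been scaled between samples. FPKM times length gave whole reads for 100% of values within 0.01 of a read, 15537863 to 17499132 reads per library. Replicates differed by more than counting noise in all 12 pairs within groups (mean squared z 4.50 to 79.9).

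limma 3.58.1 in R 4.3.3 (lmFit, then trended eBayes) modelled log2(FPKM + 0.5) of 16012 genes with mean FPKM of at least 0.5, without covariates, Benjamini-Hochberg adjusted over all of them, threshold 0.05 (tested on simulated data). Coordinates are mm10 as deposited, and 43 of 44 members had the same in GENCODE M21. Of the members 8 share exon bases with a non-coding gene or pseudogene, none of these above a mean of 0.134 FPKM.

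Named were Klf10, all tested members, Sfrp5, Ctnnb1, Lef1, Tcf7, Tcf7l2 and, per pathway sublist, the 2 passing genes of lowest p in each direction. Cthrc1 and Pygo1 were mentioned only for how they met the filter and are not among the named results counted below. Members under the filter were named by their values. Members, lists and tests were chosen with earlier results of these data known. Alternatives were no filter or a minimum of 2, pseudocounts of 1 and 0.1, TPM, quantile and marker scaling, eBayes without trend, a replicate block, leaving out each library, voom on recovered reads, and KLF10AKO replicate 4 alone, assumed to vary like WT.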

Additional observations from a re-analysis of the deposited data

Results flagged for a closer look

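In 126 groups of 4 libraries (69 genes), 9 had 1 library far from the other 3 (a gap above Dixon's 95% critical value); chance flags about 1 in 20 groups. Among members, WT replicate 4 stood apart in 3 genes: it was the highest for Fzd2, at 4.11 FPKM, and the lowest for Wnt6, at 0.249 FPKM, and Sfrp4, at 0.326 FPKM. WT replicate 1 was the highest for Wnt4, at 0.0639 FPKM. WT replicate 3 was the highest for Dkk1, at 0.0549 FPKM, which is 2 reads. KLF10AKO replicate 1 was the highest for Wnt10b, a ligand that restrains fat cell formation, at 0.357 FPKM. KLF10AKO replicate 3 was the lowest for Dkk4, at 0 FPKM beside 1 read in each of the other KLF10AKO libraries. Among the other pathway genes, KLF10AKO replicate 4 was the highest for Rnf43, at 1.44 FPKM, and the lowest for Tcf7l1, at 4.55 FPKM.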

How the results depend on the processing

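The 14 calls among the members (4 higher, 10 lower) were also 14 with voom and with the replicate block, and 14 to 15 with each library left out. With eBayes without trend they were 15, of which 11 were lower, as Sfrp1 then passed. The same-numbered libraries deviated together with correlations of 0.0211, 0.003, 0.031 and 0.0081, so the numbers do not pair them. With the replicate block 11726 genes passed and 45 pathway genes, and it changed the call of none of the 43 named results. No filter gave 23 calls among the members, 9 of them higher. A minimum mean FPKM of 2 and quantile normalization each left 2 higher. Of the calls over all genes, 53.0% were higher as deposited, 63.4% with TPM, 41.2% with quantile normalization, 98.7% with adipocyte marker scaling and 77.9% with fibroblast marker scaling, and the median over all genes shifted (log2) by 0.20, -0.20, 1.42 and 0.50. Adipocyte marker scaling gave 14045 genes higher and 179 lower, 14 members higher and 0 lower, and 48 pathway genes higher and 1 lower. It turned the log2 change of Klf10 to 0.73, Fzd1 to 0.27, Lrp6 to 0.54, Lrp5 to 0.33, Fzd7 to 1.16, Fzd6 to 0.40, Fzd8 to 0.54, Fzd2 to 0.19, Wnt9a to 0.36, Fzd5 to 1.19, Sfrp2 to 0.36 and Sfrp1 to 0.63. Outside the members it turned Wls to 0.82, Porcn to 0.25, Lgr4 to 0.01, Celsr2 to 0.32, Prickle1 to 0.74, Gsk3b to 1.02, Csnk1e to 1.15, Tcf7l1 to 0.58, Ctnnbip1 to 0.36, Nkd1 to 0.32, Sfrp5 to 0.18, Ctnnb1 to 1.21 and Tcf7l2 to 0.39. Of the genes it turned, Fzd2, Sfrp2, Porcn, Lgr4 and Sfrp5 did not pass on that scale. Fibroblast marker scaling, chosen after seeing the data, gave 2672 genes lower, 28 pathway genes higher and 16 lower. It turned Fzd7 to 0.21, Fzd5 to 0.38, Sfrp1 to 0.03, Gsk3b to 0.00, Csnk1e to 0.14 and Ctnnb1 to 0.14. None of the genes it turned passed on that scale. The results of both marker scalings follow from the scaling itself. Quantile normalization also made Fzd5 (-0.39), Fzd7 (-0.55) and Sfrp1 (-0.83) pass and Axin2 (0.19), Wnt6 (0.21) and Vangl2 (0.22) lose their calls, and TPM ended those of Csnk1e and Ctnnb1 (-0.23 each). Fzd5, which did not pass as deposited, turned to 0.11 with TPM and to 0.12 with KLF10AKO replicate 4 alone, and ran from -0.12 to 0.02 with a library left out. Rspo1, which did not pass either, turned to -0.21 with quantile normalization. The 3-read floor and a mean under 0.5 FPKM limit what can be said of 26 members.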
